A study of Rattus norvegicus with 42 samples.

Results

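The genes described here are 40 genes of the cell division cycle, chosen by name from a list that covers replication of DNA, entry into mitosis, the kinetochore, the spindle and the separation of daughter cells. Every probe set of the array whose annotated symbol was 1 of these names, and no other, was taken. Probe sets were found for 37 of the 40 genes, 49 probe sets among the 31042 tested, of which 28 genes had 1 probe set and 9 had several. Ncapg and Tpx2 had no probe set in the annotation used here, and Rrm2 had only 2 probe sets shared with another symbol, which were not used.

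Gene expression was measured in whole blood of 42 male Sprague-Dawley rats of 280 to 350 g on Affymetrix rat genome arrays, 1 array a rat, with 6 rats in each of 7 groups. The study asked how tissue plasminogen activator (tPA), the protease that dissolves clots and is given in ischemic stroke, changes gene expression in blood with and without occlusion of the middle cerebral artery (MCAO). Naive rats had no intervention before sampling as far as the labels say, and rats of the anesthesia group had neither MCAO nor tPA. Another control group received tPA without MCAO. Reperfused-MCAO rats had the artery blocked by a suture under isoflurane for 2 h and then open for 22 h, and permanent-MCAO rats kept the suture for 24 h, each kind without and with tPA. The tPA was recombinant human protein, 3.3 mg/kg given into the peritoneum at 3 h, and all blood was drawn under isoflurane by cardiac puncture at 24 h. No group had the surgery without the occlusion, and the sources used here do not state whether the rats given tPA without MCAO were anesthetised at dosing.

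A dividing cell first copies its DNA. The minichromosome maintenance proteins Mcm2 to Mcm7 form the ring-shaped helicase that is loaded on origins of replication (licensing), Pcna is the clamp that holds the polymerase on the template, and Tyms makes thymidylate for the new strands. Cyclins A and B then switch on the kinase Cdk1, centromere proteins build the kinetochore that grips the spindle, the checkpoint proteins Bub1, Bub1b and Ttk hold the cell until every chromosome is attached, and Cdc20 and Ube2c direct the destruction of securin (Pttg1), which releases the sister chromatids. In blood most circulating cells do not divide. The last nucleated stages of red cell formation lie in the marrow, and young red cells that have just left it still carry RNA, while lymphocytes keep replication genes switched on when activated.

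Promoters are shown for 4 genes with large tPA differences and for 2 licensing genes, because the genes of both kinds moved in opposite directions across the arrays. Of the 37 measured genes, 32 matched the RefSeq promoter table by symbol. Each window runs from 250 bases before to 50 bases after the annotated start, 5′ to 3′ along the gene, on the rat assembly GRCr8. Capitals mark 3 motifs searched on both strands: CCAAT, the box bound by NF-Y, TTTGAA, the cell cycle homology region of mitotic genes, and the site bound by E2F factors, taken as TTCCCGC in its usual form, TTGGCGC in another and TTCGCGC in the last form searched. Overlapping matches run together.
Cdkn3 (chr15:22502136-22502435, plus strand): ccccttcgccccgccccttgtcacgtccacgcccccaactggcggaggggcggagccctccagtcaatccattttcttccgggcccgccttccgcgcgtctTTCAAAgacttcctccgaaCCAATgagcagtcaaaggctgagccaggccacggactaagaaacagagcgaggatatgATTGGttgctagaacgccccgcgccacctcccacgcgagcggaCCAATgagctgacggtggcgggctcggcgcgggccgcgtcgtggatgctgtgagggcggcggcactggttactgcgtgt
Cenpw (chr1:29353720-29354019, plus strand): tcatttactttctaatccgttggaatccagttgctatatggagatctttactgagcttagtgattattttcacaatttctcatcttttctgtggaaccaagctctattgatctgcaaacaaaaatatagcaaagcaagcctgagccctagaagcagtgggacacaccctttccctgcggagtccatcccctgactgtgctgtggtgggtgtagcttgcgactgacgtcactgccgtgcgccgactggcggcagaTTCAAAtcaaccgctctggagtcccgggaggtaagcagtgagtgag
Mki67 (chr1:199952544-199952843, minus strand): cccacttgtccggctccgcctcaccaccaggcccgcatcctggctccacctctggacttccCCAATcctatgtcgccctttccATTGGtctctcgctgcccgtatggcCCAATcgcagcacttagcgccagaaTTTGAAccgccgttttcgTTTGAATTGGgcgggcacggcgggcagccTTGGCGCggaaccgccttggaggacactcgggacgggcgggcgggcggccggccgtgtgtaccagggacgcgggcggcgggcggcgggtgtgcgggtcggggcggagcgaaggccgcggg
Pttg1 (chr10:28406277-28406576, minus strand): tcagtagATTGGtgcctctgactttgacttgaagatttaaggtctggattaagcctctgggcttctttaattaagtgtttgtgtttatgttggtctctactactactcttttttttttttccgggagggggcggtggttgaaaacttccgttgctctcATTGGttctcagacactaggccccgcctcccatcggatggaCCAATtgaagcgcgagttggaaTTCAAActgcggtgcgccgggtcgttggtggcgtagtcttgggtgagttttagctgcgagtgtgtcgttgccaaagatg
Mcm6 (chr13:42404303-42404602, minus strand): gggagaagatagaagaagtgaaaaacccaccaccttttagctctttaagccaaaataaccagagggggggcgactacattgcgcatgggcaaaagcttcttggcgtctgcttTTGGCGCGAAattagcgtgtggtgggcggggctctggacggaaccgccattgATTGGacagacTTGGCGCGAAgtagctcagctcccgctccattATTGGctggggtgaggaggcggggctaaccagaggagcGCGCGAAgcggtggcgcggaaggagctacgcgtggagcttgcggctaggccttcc
Mcm7 (chr12:22163129-22163428, minus strand): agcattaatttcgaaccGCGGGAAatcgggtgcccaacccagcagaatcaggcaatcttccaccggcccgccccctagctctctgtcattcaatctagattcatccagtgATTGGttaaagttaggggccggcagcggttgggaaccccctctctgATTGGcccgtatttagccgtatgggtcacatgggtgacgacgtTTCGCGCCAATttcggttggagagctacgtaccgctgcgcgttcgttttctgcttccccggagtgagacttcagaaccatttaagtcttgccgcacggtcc
CCAAT stood in 25 of the 32 promoters (78.1%), against 37.5% of all 33365 promoters of the same length. TTTGAA stood in 19 (59.4%, against 18.3%), and an E2F form in 10 (31.2%, against 7.54%). All 5 Mcm promoters in the table held an E2F form and 1 held TTTGAA, whereas of the other 27 promoters 5 held an E2F form and 18 held TTTGAA. The promoters shown do not stand for every gene of their direction. Cenpu and Bub1, which were lower with tPA, held none of the 3 motifs. Tyms, also lower, held an E2F form alone, and Pcna, which was higher and is counted among the 27, held CCAAT alone. In Cdkn3 the TTTGAA letters lay on the opposite strand with their first base 149 bases before the start, in Pttg1 29 bases before it, and in Mki67 on the gene's own strand 117 and 99 bases before it. Mcm6 held 5 matches to E2F forms, of which neighbouring ones overlap. A match to these letters is a description of the window and was not tied to any factor here.

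Values are GC-RMA log2 signals of the authors. Array medians lay between 3.05 and 3.26. The hybridization control level, the mean log2 signal of 14 probe sets for the bacterial transcripts bioB, bioC and bioD that are spiked into each hybridization, was 9.72 to 11.69 in the tPA group without MCAO and 11.40 to 12.44 on all other arrays. The tPA group without MCAO did not overlap the anesthesia group (11.79 to 12.37). Replicate 2 of the tPA group stood apart with 9.72, against 11.05 for the next array. Whole blood was borne out by its markers: all 10 platelet genes, 32 of 34 erythroid genes and 15 of 16 T cell genes lay at or above log2 4 in the mean over arrays. Lower means are called dim below.

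Of the 49 cell division probe sets, 27 (55.1%, 24 genes) averaged log2 4 or more, against 42.6% of all probe sets. The 10 of highest mean signal were those of Pttg1 (11.84), Ube2c (10.14), Pcna (9.85), Mcm7 (8.87), Cdkn3 (8.87), Mki67 (8.66), Cenpu (7.94), Cenpw (7.88 and 7.70) and Birc5 (7.79). These values are signals of different probe sets and do not rank the transcripts. Their spread over the 42 arrays differed far more than their means, from a range of 1.48 log2 for Pcna and 1.63 for Mcm7 to 6.06 for Cdkn3, 6.24 for Cenpu and 7.17 for Cenpw (1393816_at). The other 22 probe sets were dim, among them both of Top2a, both of Ccnb1, both of Ttk and both of Kif11, those of Cdk1, Ccna2 and Plk1, and 3 of the 5 of Cdc20.

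The plot of 6 probe sets by group shows the main pattern.

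**Figure D1:**
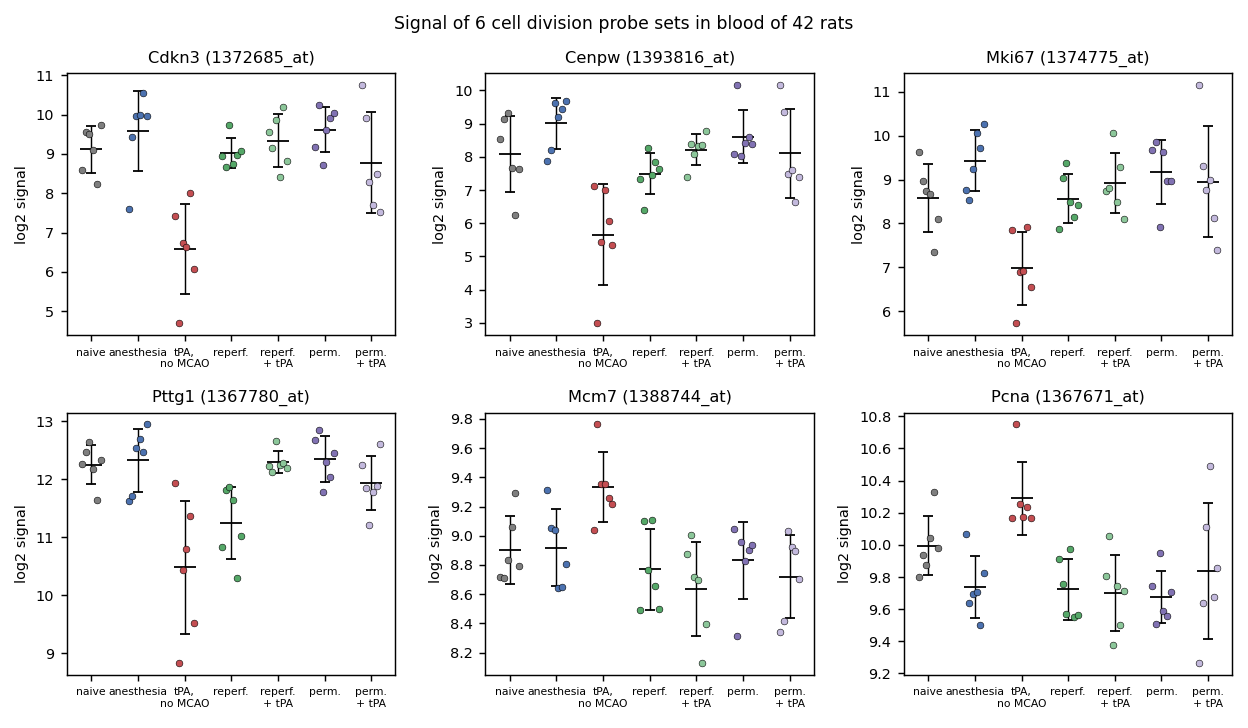
Log2 signal (vertical axis) of 6 cell division probe sets in each of 42 rats, by group (horizontal axis, 6 rats each). Points are rats, the horizontal tick is the group mean and the bars are ±1 SD. Cdkn3, Cenpw, Mki67 and Pttg1 lie lowest in the rats given tPA without MCAO (Cdkn3 4.69 to 8.002, anesthesia 7.61 to 10.54), where Mcm7 and Pcna lie highest by group mean.

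The largest differences were between rats given tPA without MCAO and the anesthesia group. A probe set was called where limma gave p of at most 0.01 and the fold was at least 1.2, the thresholds of the study for comparisons of 2 groups. Of the 49 probe sets 11 were lower and 3 higher with tPA, while 4.59% of all probe sets were called lower and 9.15% higher. After Benjamini-Hochberg adjustment over all 31042 probe sets, 13 of the 49 passed 0.05 (11 lower and 2 higher), against 12.5% of all. The median difference was -0.08 over the 49 probe sets and -0.01 over all. Bub1, Cenpf and Mcm6 lie beyond the 10 called probe sets of smallest p and were named after their values were seen. Since these are RNA levels in whole blood, fewer cells of a type and less RNA per cell cannot be told apart.

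Centromere and kinetochore genes had the largest fall: 4 of their 6 probe sets were called lower. Cenpw, which helps seat the kinetochore on centromeric chromatin, ranged from 7.86 to 9.69 in the anesthesia group with a median of 9.32, and from 2.99 to 7.12 with a median of 5.75 in the rats given tPA (1393816_at). The groups did not overlap, and the difference was -3.34 log2 ± 0.66 (SE, n = 6 and 6, limma adjusted p = 0.0147, 10.1-fold). The second probe set of Cenpw (1391518_at) also did not overlap between the groups and fell by 2.90 log2 (SE 0.68, adjusted p = 0.0239). Cenpu, a member of the constitutive centromere network, had signals of 7.38 to 10.17 (median 8.98) without and 3.93 to 7.60 (median 6.07) with tPA. The highest tPA rat overlapped the lowest anesthesia rat, and the difference was -3.04 log2 ± 0.65 (SE, adjusted p = 0.0183). Cenpf, a kinetochore protein of late division that was dim here, fell by 0.87 log2 (SE 0.24, adjusted p = 0.0411), whereas Cenpa, the centromeric histone variant, differed by 0.42 (SE 0.17, adjusted p = 0.12) and was not called.

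Of the cyclins and their partners, 2 of 6 probe sets were called, both lower. Cdkn3, a phosphatase that acts on cyclin-dependent kinases, ranged from 7.61 to 10.54 in the anesthesia group (median 9.96) and from 4.69 to 8.002 with tPA (median 6.69). A single anesthesia rat lay within the range of the tPA rats. Cdkn3 was 7.97-fold lower with tPA, with an SE of 0.60 on the log2 scale (adjusted p = 0.0151). Ccnb2, a B cyclin, had signals of 5.96 to 7.75 (median 7.11) without and 4.54 to 5.87 (median 5.27) with tPA, with no overlap, and fell by 1.70 log2 (SE 0.37, adjusted p = 0.0183).

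Mki67, the nuclear protein used as the standard proliferation marker, also separated the groups. It ranged from 8.54 to 10.27 in the anesthesia group (median 9.48) and from 5.73 to 7.93 with tPA (median 6.91), a difference of -2.45 log2 ± 0.42 (SE, adjusted p = 0.00955). Both probe sets of Top2a, the topoisomerase that untangles replicated DNA, were dim and differed by -0.06 and -0.01.

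Among mitotic kinases, passengers and checkpoint genes 2 of 8 probe sets were called, both lower. Birc5, the passenger protein survivin, ranged from 6.71 to 9.75 (median 9.13) without and from 5.19 to 7.50 (median 6.07) with tPA. The groups overlapped, and the difference was -2.54 log2 ± 0.56 (SE, adjusted p = 0.0197). Bub1, a checkpoint kinase, fell by 1.86 log2 (SE 0.49, adjusted p = 0.0346), with signals of 6.56 to 8.72 (median 7.28) without and 4.58 to 7.03 (median 5.70) with tPA. Aurka, the centrosome kinase, differed by -0.75 (SE 0.29, adjusted p = 0.105), and Aurkb, the kinase of the passenger complex, by less than 0.01.

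Of the 7 probe sets for anaphase genes 1 was called, that of Pttg1. The securin gene ranged from 11.63 to 12.95 in the anesthesia group (median 12.51) and from 8.83 to 11.94 with tPA (median 10.62), overlapped, and fell by 1.85 log2 (SE 0.50, adjusted p = 0.037). Cdc20, the activator of the anaphase-promoting complex, disagreed between its probe sets: 1387895_s_at differed by -2.35 (SE 0.82, adjusted p = 0.0808) and 1370294_a_at by -1.12 (SE 0.48, adjusted p = 0.138), and the 3 dim ones by -0.08 to -0.01. Ube2c, the ubiquitin-conjugating enzyme of the same complex, differed by -1.18 (SE 0.56, adjusted p = 0.171).

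Of the 8 probe sets for licensing and DNA synthesis 2 were called higher, Pcna and Mcm6, and 1 lower, Tyms. Pcna ranged from 9.50 to 10.07 in the anesthesia group (median 9.70) and from 10.17 to 10.75 with tPA (median 10.21). The groups did not overlap, and Pcna rose by 0.55 log2 (SE 0.12, adjusted p = 0.0178). Mcm6 was called higher as well, by 0.59 log2 (SE 0.18), though its adjusted p was 0.0589, with signals of 6.47 to 7.10 (median 6.77) without and 6.99 to 8.05 (median 7.22) with tPA. Its call was lost without any 1 of 7 arrays (0.54 to 0.61), 5 of the anesthesia group (replicates 2 to 6) and replicates 3 and 5 of the tPA group. Mcm7 differed by 0.42 (SE 0.14, adjusted p = 0.0732) and the other 4 licensing genes by -0.03 to 0.23, and none of these 5 was called. Tyms, in contrast, ranged from 6.59 to 8.15 (median 7.16) without and from 3.89 to 5.94 (median 5.63) with tPA, did not overlap, and fell by 1.96 log2 (SE 0.37, adjusted p = 0.0121).

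Spindle and cytokinesis genes gave 1 call among 11 probe sets. Kif20a, the motor of the central spindle, rose by 0.55 log2 (SE 0.12, adjusted p = 0.0178), from 4.90 to 5.67 (median 5.17) without to 5.57 to 5.94 (median 5.82) with tPA, with an overlap. Prc1, which bundles the central spindle, differed by -0.92 (SE 0.30, adjusted p = 0.0688). Both probe sets of Nusap1, a spindle-associated protein, differed by -1.51 and -1.15 with SEs of 0.63 and 0.62, and neither was called. Exact permutation tests over the 924 divisions of the 12 rats gave their smallest possible p, 0.002165, for the 6 probe sets without overlap. These were Pcna, Tyms, Mki67, Ccnb2 and both of Cenpw. That p follows from the separation itself, and the share of all probe sets without overlap was not counted. All 6 overlapped between the tPA rats and the naive rats. For Mki67 the lowest naive value was 7.34 and the highest tPA value 7.93.

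Several levels moved with these differences. Over the erythroid list, 14 of 34 genes were called lower and none higher, and the mean of the list was 8.25 to 10.27 in the tPA rats and 10.48 to 11.31 in the anesthesia rats, without overlap. Of its genes, Hbe1, an embryonic globin, fell by 3.03 log2 and Ank1, the red cell ankyrin, by 2.56. Of 16 T cell genes 14 were called higher and none lower, and the list mean was 9.70 to 10.19 with tPA and 8.89 to 9.32 without. The hybridization control level was lower in all 6 tPA rats than in all 6 anesthesia rats, as given above, so that group and level cannot be told apart by rats of like level. With each array's control level in the limma model, 0 of the 49 probe sets were called, and 5 had an unadjusted p under 0.05: Mki67, Tyms, Cenpw (1393816_at), Kif20a and Cdkn3. The shares of all probe sets in that fit are not given here, so the loss of calls cannot be read as particular to the members. The difference of Cdkn3 was then -1.33 (SE 0.56, adjusted p = 0.519), that of Cenpw (1393816_at) -1.31 (SE 0.48), that of Mki67 -1.43 (SE 0.47) and that of Pcna 0.21 (SE 0.10). Without replicate 2 of the tPA group, the array of lowest control level, 13 of the 49 were called, with Cenpf the call that was lost (-0.81), and Cdkn3 differed by -2.62, Cenpw (1393816_at) by -2.81 and Mki67 by -2.20.

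**Figure D2:**
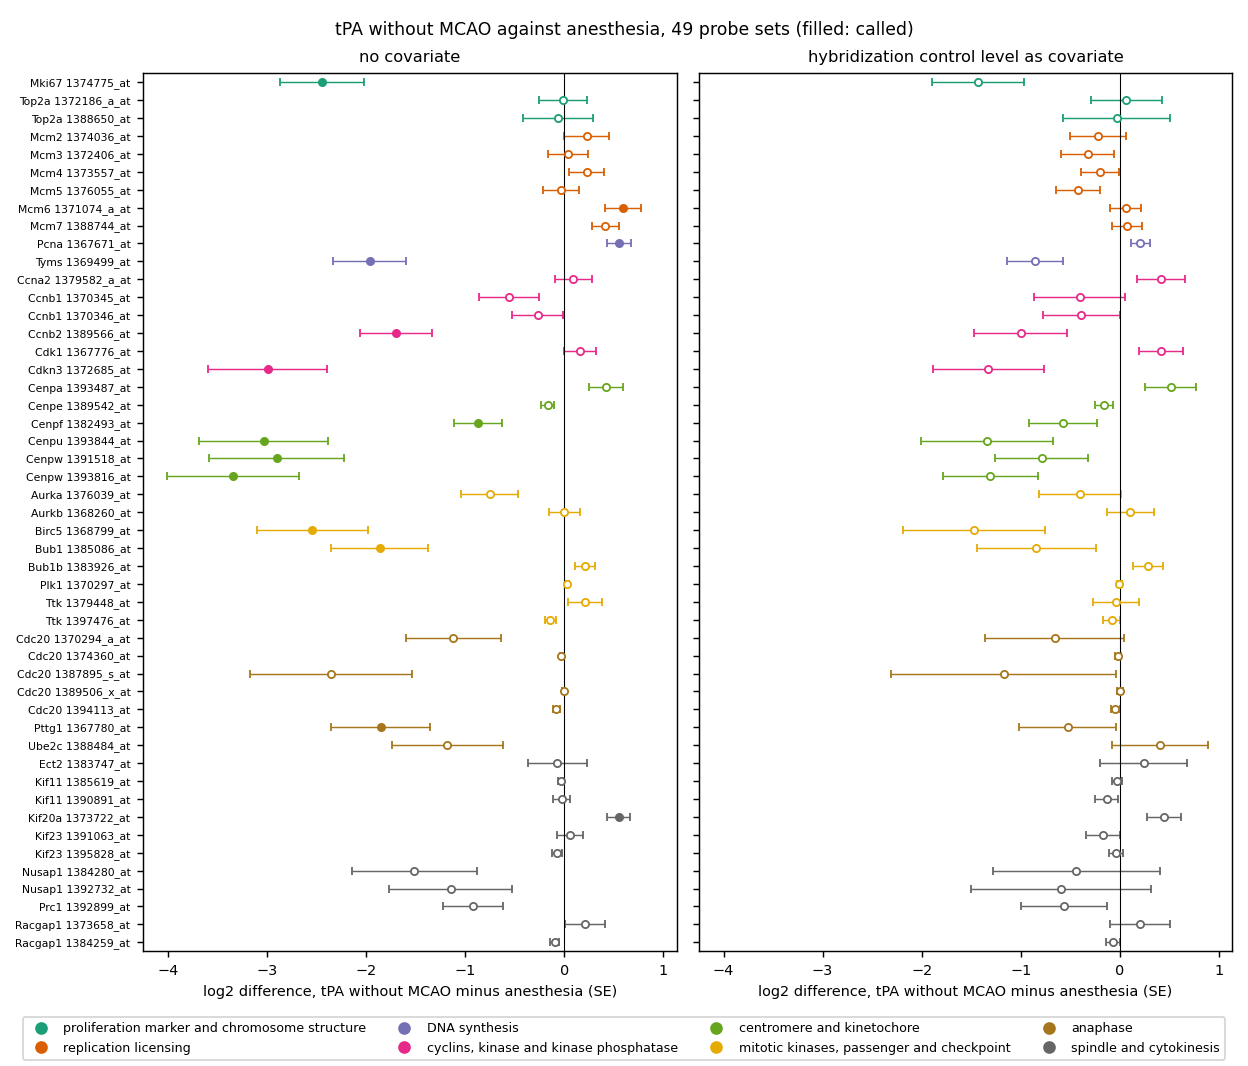
Log2 difference between 6 rats given tPA without MCAO and 6 anesthesia rats (horizontal axis, negative is lower with tPA) for each of 49 probe sets (vertical axis), coloured by role, with bars of ±1 SE from limma. The left panel is the comparison as tested, where 14 filled points are called, and the right panel has the hybridization control level of each array as a covariate, where 0 are called.

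In rats with MCAO few of the 49 probe sets were called for tPA. In reperfused-MCAO 1 of 49 probe sets was called higher and 0 lower, with 0.283% and 0.438% of all probe sets. This was Pttg1, which ranged from 10.30 to 11.86 without tPA (median 11.33) and from 12.13 to 12.67 with tPA (median 12.24), with no overlap. Its difference was 1.05 log2 ± 0.26 (SE, n = 6 and 6, limma adjusted p = 0.542, exact permutation p = 0.002165, the smallest possible). No probe set of all 31042 passed the adjusted threshold in limma. Of the 49, 5 had an unadjusted p under 0.05, against 2481 of all 31042. The probe sets of Cenpw differed by 0.61 and 0.72 (SE 0.23 and 0.30), Cdkn3 by 0.31 (SE 0.30) and Cenpu by -0.03 (SE 0.63), and none of these was called.

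In permanent-MCAO limma called 0 of the 49, and 0 had an unadjusted p under 0.05, with 0.18% of all probe sets called higher and 0.142% lower. Over all 31042 probe sets 717 had such a p. Pttg1 differed by -0.42 (SE 0.24), Cdkn3 by -0.84 (SE 0.55), Cenpu by -0.50 (SE 0.55), and the probe sets of Cenpw by -0.51 (SE 0.61) and -0.48 (SE 0.58). Further from 0 than these were Ube2c (-1.17, SE 0.59) and Birc5 (-0.9997, SE 0.59), which were not called either. The spread within the permanent-MCAO rats given tPA was wide, with Cdkn3 from 7.53 to 10.75 and Mki67 from 7.40 to 11.15. Testing the 2 tPA differences against each other, Pttg1 alone was called (1.47 log2 ± 0.36, adjusted p = 0.978), with 0.0902% of all probe sets called higher and 0.206% lower. Cdkn3 gave 1.15 (SE 0.64), Cenpu 0.47 (SE 0.85) and the probe sets of Cenpw 1.23 (SE 0.69) and 1.09 (SE 0.63).

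**Figure D3:**
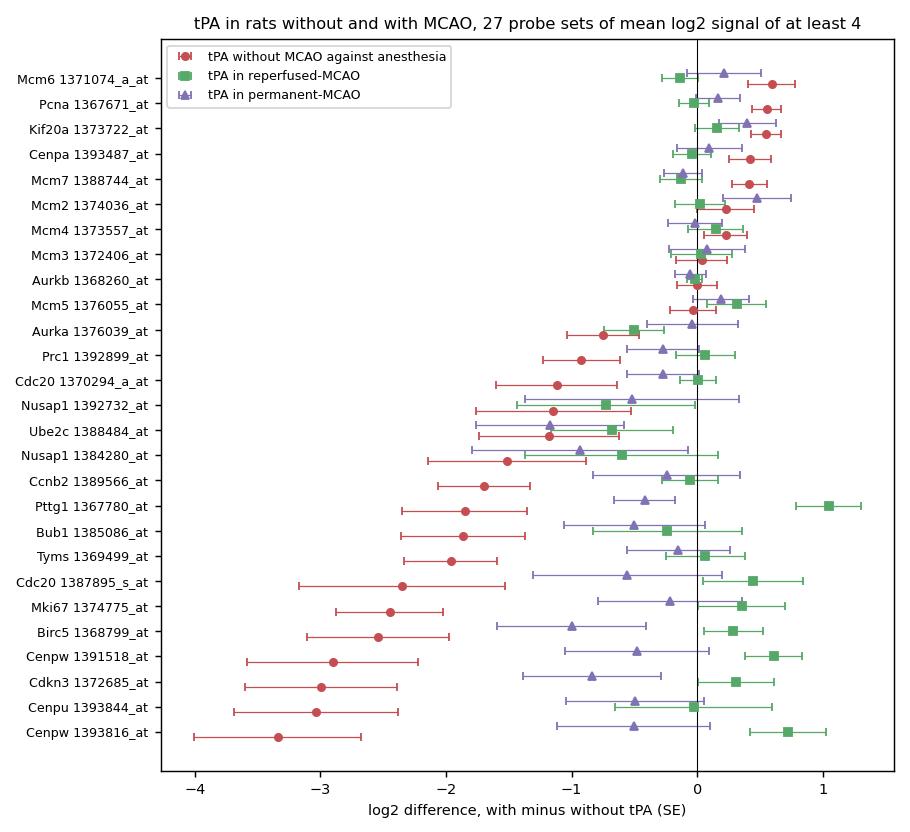
Log2 difference with minus without tPA (horizontal axis, ±1 SE from limma) in rats without MCAO (anesthesia as control), with reperfused-MCAO and with permanent-MCAO, 6 rats a group, for the 27 probe sets that were not dim (vertical axis). Cdkn3, Cenpu and Cenpw lie at -2.90 to -3.34 without MCAO and between -0.84 and 0.72 with it.

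Fitted over all 42 rats, with terms for tPA, stroke (any MCAO), anesthesia and tPA by stroke, the tPA by stroke interaction called 13 of 49 probe sets higher and 3 lower at the thresholds of the study for that model, p of at most 0.05 and a fold of at least 1.2. For comparison, 6.62% of all probe sets passed as higher and 14.4% as lower. A positive interaction is a tPA difference that is higher, or less negative, with MCAO than without. After adjustment 9 of the 49 passed, all positive, against 9.47% of all, and 1 of these, the dim Ttk 1397476_at (0.17, SE 0.05, adjusted p = 0.0229), lay under the fold threshold. Among them the largest were Cenpw (3.45 ± 0.72 and 2.97 ± 0.65, SE, adjusted p = 0.00484 and 0.00588), Cenpu (2.77 ± 0.77, adjusted p = 0.0208), Cdkn3 (2.73 ± 0.61, adjusted p = 0.00679) and Mki67 (2.52 ± 0.57, adjusted p = 0.00697). Birc5 gave 2.19 (SE 0.65), Pttg1 2.17 (SE 0.47) and Tyms 1.92 (SE 0.49), and Ccnb2, called without passing adjustment, 1.55 (SE 0.54, adjusted p = 0.0586). The 3 lower ones, a smaller share than over all probe sets, were Mcm7 (-0.54, SE 0.19), Pcna (-0.48, SE 0.17) and Mcm6 (-0.55, SE 0.26). None of them passed adjustment in limma, with adjusted p of 0.0563, 0.0615 and 0.143. Pcna and Mcm6 were named after their values were seen. When the control level entered as a covariate, the interactions of Pcna and Mcm6 changed sign (0.0133 and 0.0396), and 5 probe sets were called: Pttg1, Mki67, Ube2c, Mcm2 and Cenpw (1393816_at). With the tPA group without MCAO coded as not anesthetised, 10 were called. For the same term 24 of 34 erythroid genes and 4 of 10 platelet genes were called higher and none lower, and 11 of 16 T cell, 5 of 10 neutrophil and 3 of 11 monocyte genes lower and none higher. The part of these lists in the interactions was not tested.

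Averaged over rats without and with MCAO, tPA went with 16 lower and 3 higher probe sets among the 49, against 5.05% and 6.91% of all. After adjustment 11 passed (10 lower, 1 higher), against 4.36% of all. The lower ones included Cenpu (-1.65 ± 0.38, SE, adjusted p = 0.0142), Cdkn3 (-1.63 ± 0.31, adjusted p = 0.00661), Cenpw (-1.62 ± 0.36 and -1.42 ± 0.33, adjusted p = 0.0123 and 0.0139), Birc5 (-1.45 ± 0.33, adjusted p = 0.0123) and Mki67 (-1.19 ± 0.28, adjusted p = 0.0157). Ube2c fell by 1.05 (SE 0.32), Tyms by 1.00 (SE 0.25), Ccnb2 by 0.93 (SE 0.27) and Pttg1 by 0.77 (SE 0.24, adjusted p = 0.0515). The higher ones were Pcna (0.31 ± 0.08, adjusted p = 0.0286), Kif20a (0.41 ± 0.13, adjusted p = 0.0522) and Mcm6 (0.32 ± 0.13, adjusted p = 0.156), the last 2 named after their values were seen. This average contains the rats without MCAO, whose tPA difference is described above. Of the erythroid genes 24 of 34 were called lower and none higher for the same term, and of the T cell genes 14 of 16 higher and none lower, and their part in the result was not tested. When the control level entered as a covariate, 2 were called, Cdkn3 and Kif20a.

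Averaged over rats without and with tPA, 5 of the 6 licensing genes were called lower with stroke, of which Mcm4 and Mcm7 passed adjustment. Of the 49 probe sets 7 were called higher and 6 lower, against 6.02% and 9.39% of all. After adjustment 4 passed (1 higher, 3 lower), against 7.86% of all. The share of lower calls and the share that passed adjustment were thus near those of all probe sets. With the tPA group without MCAO coded as not anesthetised, which the sources do not settle, 3 of the 49 were called, Mcm4 and Mcm7 lower and Cenpa higher. The 6 lower ones were 5 of the 6 licensing genes and Pcna: Mcm4 (-0.42 ± 0.12, SE, adjusted p = 0.0262), Mcm3 (-0.41 ± 0.16, adjusted p = 0.106), Mcm6 (-0.39 ± 0.13, adjusted p = 0.0535), Mcm7 (-0.39 ± 0.09, adjusted p = 0.00774), Mcm2 (-0.38 ± 0.14, adjusted p = 0.089) and Pcna (-0.28 ± 0.08, adjusted p = 0.0325). The sixth licensing gene, Mcm5, gave -0.17 (SE 0.13). None of the 7 higher ones was a licensing or DNA synthesis gene, or a mitotic kinase, passenger or checkpoint gene. Those of smallest p were Cdkn3 (1.10 ± 0.31, adjusted p = 0.02), Mki67 (0.70 ± 0.28, adjusted p = 0.132), Pttg1 (0.55 ± 0.24, adjusted p = 0.156) and Kif23 (1391063_at, 0.29 ± 0.13, adjusted p = 0.189). Kif23, a central spindle motor, was dim, and its other probe set gave -0.01. This average contains the rats given tPA without MCAO, in which the licensing gene Mcm6 and Pcna were higher, and Cdkn3, Mki67, Pttg1 and Cenpw lower, than in the anesthesia group. T cell markers fell with stroke in the same model, 14 of 16 genes called lower and none higher, and 15 of 34 erythroid, 9 of 10 platelet, 7 of 10 NK and cytotoxic cell and 6 of 10 neutrophil genes were called higher and none lower. The part of these lists in the differences was not tested. With the control level in the model as a covariate, 3 were called, Cdkn3, Mcm7 and Kif23. With replicate 2 of the tPA group without MCAO left out, 2 were called higher and 5 lower, and the same numbers without replicate 1 of the anesthesia group. Without the former array the higher calls of Mki67 (0.57), Pttg1 (0.38), Cenpw 1393816_at (0.51), Ube2c (0.47) and Prc1 (0.35) and the lower call of Pcna (-0.24) were lost.

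Against the anesthesia group alone, without tPA on either side, MCAO gave few calls. These comparisons share the 6 anesthesia rats with each other and with the tPA comparison above. In reperfused-MCAO 3 of the 49 were called lower and 0 higher, with 1.91% and 4.09% of all probe sets. They were both probe sets of Cenpw, with differences of -1.51 ± 0.39 (SE, adjusted p = 0.0787) and -1.34 ± 0.39 (adjusted p = 0.117), and Pttg1, with -1.09 ± 0.32 (adjusted p = 0.128). Cenpw (1393816_at) ranged from 6.41 to 8.26 (median 7.54) in reperfused-MCAO and from 7.86 to 9.69 (median 9.32) in the anesthesia group, with an overlap. In the same comparison 5 of 10 neutrophil, 5 of 10 NK and cytotoxic cell and 3 of 11 monocyte genes were called higher and none lower, and 6 of 34 erythroid genes lower and none higher. Their part in these differences was not tested. None of the 49 passed adjustment in limma, against 656 of all 31042 probe sets. An unadjusted p under 0.05 was found for 12 of the 49 and for 5013 of all. The count of called members moved from 1 to 8 as single arrays were left out. It was 8 without replicate 1 of the anesthesia group and 1 without replicate 3, 4, 5 or 6 of it. When the control level entered as a covariate, 1 was called, Mcm4, and neither Cenpw nor Pttg1 was.

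In permanent-MCAO limma called 0 of the 49, with 1.77% of all probe sets called higher and 1.01% lower, and 1 had an unadjusted p under 0.05, Mcm2 (-0.53). Such a p was found for 2362 of all 31042 probe sets. All 6 licensing genes had negative differences in both kinds of MCAO, with medians of -0.27 in reperfused-MCAO and -0.28 in permanent-MCAO, and none was called. In the same order, positive differences were found for 10 and 20 of the 49, and for 11051 and 16747 of all 31042 probe sets. Anesthesia against naive gave 0 calls among the 49, with 0.28% of all probe sets called higher and 0.541% lower, and 4 had an unadjusted p under 0.05: Pcna (-0.26), Mcm6 (-0.27), Cenpa (-0.48) and Cenpe (0.15), a kinetochore motor. Over all 31042 probe sets 1517 had such a p. Without replicate 1 of the anesthesia group, which had the lowest control level of its group, 3 were called, Ube2c higher and Pcna and Mcm6 lower. With all arrays, 35 of the 49 differences between anesthesia and naive were positive, against 14892 of 31042 over all probe sets. Of the 11 probe sets called lower with tPA without MCAO, Cenpf alone was lower in anesthesia than in naive (-0.07). Cenpu was higher by 1.199 (SE 0.65), Cenpw by 0.91 (SE 0.54) and 0.83 (SE 0.45), and Mki67 by 0.85 (SE 0.41). The difference between the rats given tPA without MCAO and the naive rats was not tested in limma.

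Across the 42 arrays 27 of the 49 probe sets were related to the hybridization control level, most of them rising with it. Pearson's r was tested with 100000 permutations and adjusted over all 31042 probe sets, and 2 such relations, to the control level and to the erythroid level, were tested for each. Of the 49 probe sets 21 were positively and 6 negatively related to the control level, against 16.6% and 21.5% of all. Negative relations were thus rarer among the members than over all probe sets. With dim probe sets left out, 17 of 27 members were positive and 7 negative, against 2031 and 5764 of 13232. Negative relations were the commoner kind among those 13232, so those of Pcna and the licensing genes are not particular to them. The highest were Cdkn3 (r = 0.88, rho = 0.84), Cenpw (r = 0.86 for each of its probe sets, rho = 0.77 and 0.79), Tyms (r = 0.82, rho = 0.81) and Pttg1 (r = 0.79, rho = 0.67). The lowest were Pcna (r = -0.81, rho = -0.76), Mcm6 (r = -0.68, rho = -0.56), Mcm7 (r = -0.63, rho = -0.52), Mcm4 (r = -0.60, rho = -0.56) and Mcm2 (r = -0.54, rho = -0.38). For 9 of these 10 probe sets the permutation p of r was at most 3e-05 (adjusted p of at most 0.000329), and for Mcm2 it was 0.00035 (adjusted p = 0.00231). The smallest p that the permutations can give is 1e-05.

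The relation was also present within groups and without the arrays at the edge. With group means removed, r was 0.75 for Cdkn3, 0.73 and 0.78 for Cenpw, 0.70 for Tyms, 0.66 for Pttg1 and -0.71 for Pcna. Without replicates 2 and 3 of the tPA group without MCAO, the 2 arrays farthest from the median level, r was 0.84 for Cdkn3 and -0.77 for Pcna. Without that whole group it was 0.77 for Cdkn3 (adjusted p = 0.000311) and -0.72 for Pcna (adjusted p = 0.000311), while Mcm7 gave -0.30 (adjusted p = 0.145) and Mcm2 -0.37 (adjusted p = 0.0663), which did not pass. Spiked transcripts and blood transcripts share the array, its washing and its normalization, and the source of the shared variation was not tested.

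The erythroid level was the mean over 34 genes known from red cells and their precursors. They cover hemoglobin and heme synthesis, membrane proteins, carbonic anhydrases, the erythropoietin and transferrin receptors and transcription factors such as Gata1 and Klf1. To this level 23 of the 49 probe sets were positively and 5 negatively related, against 24.1% and 24.1% of all. Negative relations were again rarer among the members. With dim probe sets left out, 17 of 27 members were positive and 5 negative, against 2136 and 6214 of 13232, where negative relations were the commoner kind. Tyms (r = 0.93, rho = 0.92), Bub1 (r = 0.89, rho = 0.93), Mki67 (r = 0.87, rho = 0.83), Cenpw (1393816_at, r = 0.85, rho = 0.79) and Cdkn3 (r = 0.84, rho = 0.79) were highest, each with the smallest possible permutation p of 1e-05 (adjusted p = 0.00012). Pcna (r = -0.76, rho = -0.69), Mcm6 (r = -0.68, rho = -0.58), Mcm7 (r = -0.59, rho = -0.45), Mcm2 (r = -0.47, rho = -0.34) and Mcm4 (r = -0.47, rho = -0.44) were lowest, with adjusted p of 0.00012, 0.00012, 0.000466, 0.00832 and 0.00705. With group means removed r was 0.88 for Tyms and 0.87 for Bub1, and without the tPA group without MCAO it was 0.89 and 0.94. With group means removed Mcm2 (-0.37, adjusted p = 0.0848) did not pass, and in the 36 rats outside that group Mcm7 (-0.26), Mcm2 (-0.29) and Mcm4 (-0.25) no longer passed. Without the 2 arrays farthest from the median, again replicates 2 and 3 of that group, r was 0.90 for Tyms and 0.93 for Bub1.

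**Figure D4:**
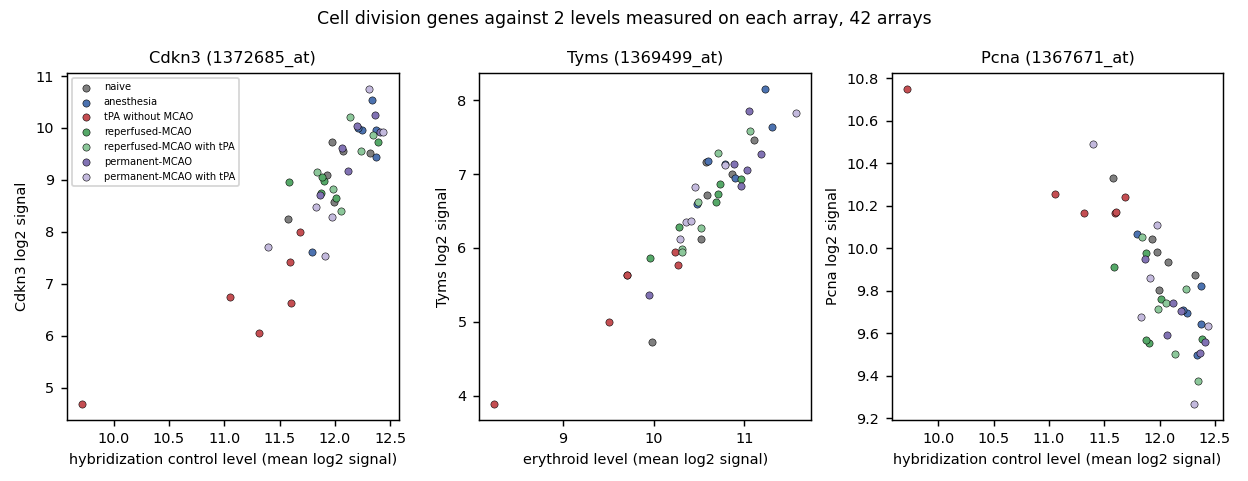
Log2 signal of Cdkn3, Tyms and Pcna (vertical axes) against the hybridization control level or the erythroid level of the same array (horizontal axes, mean log2 signal), 42 arrays coloured by group. Cdkn3 rises with the control level (r = 0.88), Tyms with the erythroid level (r = 0.93), and Pcna falls with the control level (r = -0.81).

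**Figure D5:**
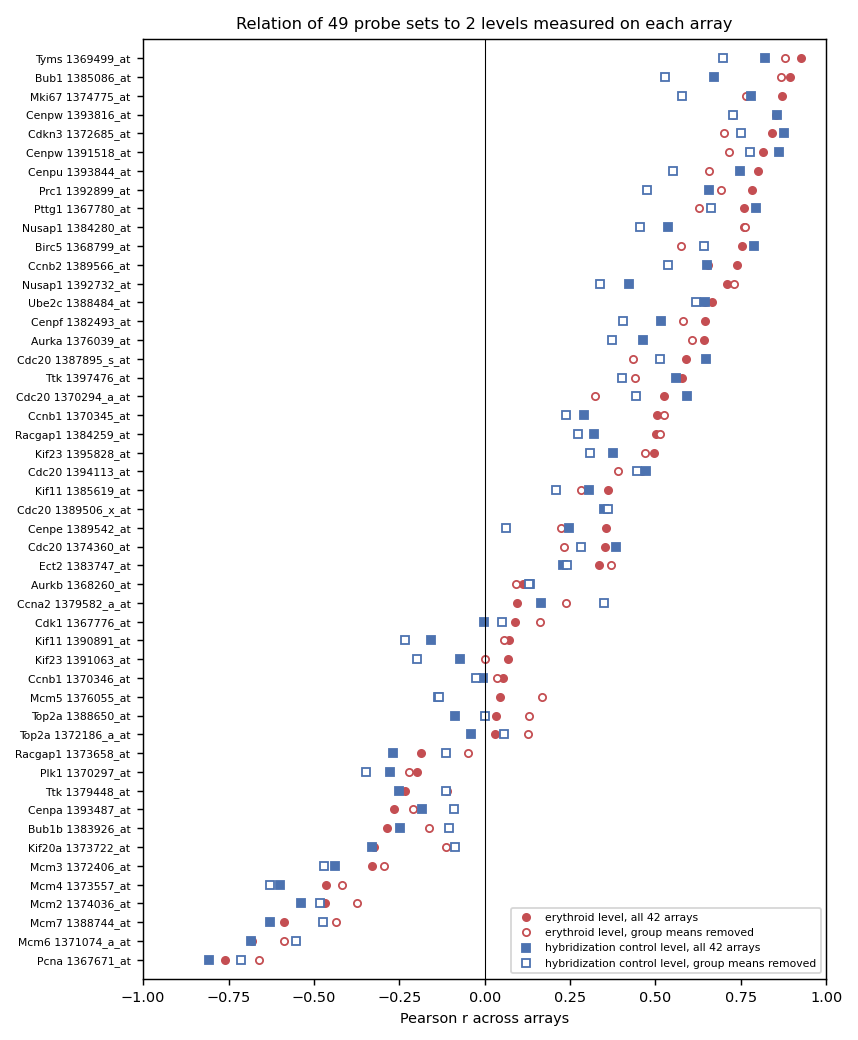
Pearson's r (horizontal axis) of each of 49 cell division probe sets (vertical axis) with the erythroid level (circles) and the hybridization control level (squares), over 42 arrays (filled) and with group means removed (open). Tyms is highest for the erythroid level (0.93), and Pcna and 5 of the 6 licensing genes lie at the lower end for both.

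Relations among the members were read for 2 sets, the licensing genes with Pcna and the other members. Tyms, the other DNA synthesis gene, was left with the other members, and its r with both levels had the opposite sign to that of Pcna. The sets were drawn with earlier results of these data known. Positive values within and negative values between them are thus partly expected from the split. Over the 27 probe sets that were not dim, with group means removed, the 6 licensing genes and Pcna had a median r of 0.59 over their 21 pairs, and 19 of the pairs were positive. The other 20 probe sets had a median of 0.47 over 190 pairs, and 149 were positive. Between the 2 sets the median was -0.35 over 140 pairs, of which 21 were positive. All pairs share the 42 arrays, so these values are a description.

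A wider list of 88 other cell division genes, in 4 groups, was read beside the members with 1 probe set a gene. Many were dim: 16 of 28 centromere, checkpoint and spindle genes and 9 of 25 replication genes. So were 9 of 25 cyclins, kinases and inhibitors and 4 of 10 chromosome and cytokinesis genes. For tPA without MCAO against anesthesia 15 were called lower and 5 higher, against 4.59% and 9.15% of all probe sets. The share called higher was thus below that of all. The median difference was -0.01. Of 28 other centromere, checkpoint and spindle genes 9 were lower and 2 higher. The lower ones included Cdca3, which helps start mitosis (-2.42, SE 0.39), and the centromere gene Cenpk (-2.45, SE 0.57). Espl1, the separase that securin holds back, was also lower (-1.23, SE 0.26) but dim. Of 25 other replication genes 3 were lower and none higher, Tk1, thymidine kinase (-1.78, SE 0.48), Rfc4, a subunit of the clamp loader (-1.17, SE 0.37), and Rrm1, the large subunit of ribonucleotide reductase (-0.89, SE 0.21). Of 25 other cyclins, kinases and inhibitors 3 were lower and 2 higher. Mybl2, a transcription factor of mitotic genes that was dim, gave -1.65 (SE 0.45). E2f2 gave -1.14 (SE 0.27) and Ccne2, an E cyclin, 0.68 (SE 0.12). Of 10 chromosome and cytokinesis genes 1 was called, Stmn1, a regulator of microtubules (0.64, SE 0.19). For tPA in reperfused-MCAO 1 of the 88 was called, lower with tPA, against 0.438% of all probe sets called lower.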

How the data were processed

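Whole blood RNA was amplified with Ovation Whole Blood reagents and hybridized to Affymetrix rat genome arrays. The deposited values are log2 signals that the authors made from the scans with GC-RMA in Partek (Partek Genomics Suite 6.04), per array and with replicates kept apart. They carry no detection call, and arrays give no read depth, so the number of rats limits the precision.

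The 57 control probe sets were set aside and 31042 were tested. Symbols came from the platform annotation given with the series, checked against RefSeq gene names for GRCr8: 20826 probe sets have 1 symbol, 436 several and 9780 none. Groups came from the sample titles. Differences were fitted with limma 3.58.1 in R 4.3.3 on all tested probe sets, over all 42 arrays for the terms tPA, stroke, anesthesia and tPA by stroke, and on the groups compared otherwise. The tPA and stroke terms are averages over the other factor, and anesthesia is coded for every group but naive. Calls used the thresholds of the study, p of at most 0.05 for the model of all rats and 0.01 for all others, and a 1.2-fold or larger change. Counts at an adjusted p below 0.05 used no fold threshold. Exact tests ran over all 924 divisions of 12 rats, two-sided. Relations across arrays used two-sided permutation tests (100000 permutations, seed 7) in Python 3.11.15. The fits and relations were tested on simulated data first.

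Genes were named by rule: the called members of a comparison (the 10 of smallest p where more were called), the 10 of highest mean, Cdkn3, Cenpu, Cenpw and Pttg1 in each tPA comparison, up to 3 genes of each other list, and the 5 highest and 5 lowest r. Members, lists and tests were chosen with earlier results of these data known. The alternatives were array median centring, quantile scaling, omission of dim probe sets, the analysis of variance of the methods, the control level as a covariate, the replicate number as a block, 1 probe set a gene, the adjusted call, another coding of anesthesia and omission of each array. Lists for B cells, plasma cells, NK and cytotoxic cells, monocytes, neutrophils, granulocyte precursors and platelets were measured too. In tPA without MCAO against anesthesia the called numbers higher and lower were 0 and 0 of 9 B cell, 0 and 0 of 6 plasma cell, 1 and 1 of 10 NK and cytotoxic cell, 1 and 0 of 11 monocyte, 2 and 0 of 10 neutrophil, 1 and 0 of 5 granulocyte precursor and 0 and 5 of 10 platelet genes.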

Additional observations from a re-analysis of the deposited data

Results flagged for a closer look

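Single rats stood far from the other 5 of their group in 11 of 126 groups of values looked at, where chance gives about 1 in 20. The test was Dixon's gap at the 95% level. For the members they were Pttg1 in reperfused-MCAO with tPA (12.67, next 12.29), Pcna in tPA without MCAO (10.75, next 10.25), Cenpw 1393816_at in permanent-MCAO (10.16, next 8.59), Cenpf in reperfused-MCAO with tPA (5.02, next 3.68) and Bub1 in permanent-MCAO with tPA (9.20, next 7.09), all high. Low ones were Mcm7 (8.31, next 8.83), Mcm6 (5.75, next 6.57) and Bub1 (5.72, next 7.74), all in permanent-MCAO. The hybridization control level was low in 1 rat of the anesthesia group (11.79, next 12.21) and in 1 of tPA without MCAO (9.72, next 11.05), and the erythroid level in 1 of permanent-MCAO (9.95, next 10.88).

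The tPA difference with MCAO departed from that without MCAO, by limma's test of the interaction at an adjusted p below 0.05, for 9 probe sets. The interactions were 3.45 and 2.97 for Cenpw, 2.77 for Cenpu, 2.73 for Cdkn3, 2.52 for Mki67, 2.19 for Birc5, 2.17 for Pttg1, 1.92 for Tyms and 0.17 for the dim Ttk 1397476_at, which lies under the fold threshold.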

How the results depend on the processing

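Of 67 calls of members, 65 kept direction and call with array median centring, with quantile scaling and with the analysis of variance of the methods. With the hybridization control level as a covariate 10 did, and the numbers called among the 49 were 2 (tPA averaged), 3 (stroke averaged), 5 (interaction), 0 (tPA without MCAO), 1 (reperfused-MCAO against anesthesia) and 1 (permanent-MCAO against anesthesia, Mcm3). The interactions of Pcna and Mcm6 changed sign to 0.0133 and 0.0396. The cause was not tested, and in the tPA group without MCAO level and group cannot be told apart. Except for the adjusted call, shares of all probe sets called under the alternative fits, or with single arrays left out, are not given here. Changes in those counts therefore cannot be read as particular to the members.

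With adjusted p below 0.05 as the call 11 (tPA averaged), 4 (stroke averaged), 9 (interaction) and 0 each (tPA in reperfused-MCAO, difference between the kinds of MCAO, reperfused-MCAO against anesthesia) were called. With the tPA group without MCAO coded as not anesthetised 3 (stroke averaged) and 10 (interaction) were called. The number of members related to the control level (27) was 23 to 37 under the alternatives, and that to the erythroid level (28) was 22 to 34. The negative relations to the erythroid level (5) were 3 without the tPA group without MCAO and 8 by Spearman's rho.

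Leaving out 1 array gave 18 to 22 (tPA averaged), 7 to 15 (stroke averaged), 13 to 17 (interaction), 1 to 2 (tPA in reperfused-MCAO; 2 without its replicate 3, with Cenpw 1391518_at), 0 to 1 (tPA in permanent-MCAO; 1 without its untreated replicate 1, Kif20a), 1 to 2 (difference between the kinds; 2 without untreated permanent replicate 6 or tPA-treated permanent replicate 1 or 6), 12 to 18 (tPA without MCAO), 1 to 8 (reperfused-MCAO against anesthesia), 0 to 0 (permanent-MCAO against anesthesia) and 0 to 3 calls (anesthesia against naive). Of the 67 calls of members, 51 stood whichever array was left out and 16 were lost without at least 1. The lost calls kept their sign and were Mcm6 (tPA averaged, interaction, tPA without MCAO), Cenpf (tPA without MCAO), Bub1, Prc1 and Cdc20 1370294_a_at (interaction), Cenpw 1393816_at, Kif23, Mki67, Pcna, Prc1, Pttg1 and Ube2c (stroke averaged), and Cenpw 1391518_at and Pttg1 (reperfused-MCAO against anesthesia).

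Same-numbered rats of different groups showed little common deviation (r from -0.33 to 0.35, median -0.01, over 0.1 in 13 of 36 pairs of rats). The labels do not say whether the numbers mark pairs or an order of processing, and these values cannot exclude it. With the replicate block 19, 10 and 16 were called for the averaged tPA, the averaged stroke and the interaction, 12 for tPA without MCAO and 1 for permanent-MCAO against anesthesia (Top2a 1388650_at).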
